A study of Mus musculus with 4 samples.

Results

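The expressed Zfp genes are 303 mouse genes named Zfp followed by a number whose probe lay well above background on all 4 arrays of the series, of 362 such gene names on the array and of 15278 gene names of any kind detected in the same way. Members were thus selected on their measured signals in relation to background, not on a change between arrays. Zfp36 was left out by the rule, whereas Zfp36l1, Zfp36l2 and Zfp36l3 stayed in. A gene with several detected probes was read from its brightest one, so a member is 1 gene and 1 value. Detection on the array of stressed cells was part of the rule, and a gene not well above background after stress could not be a member. In what follows, above background means flagged by the scanner software as well above it, which a probe with some signal can miss. The genes were also chosen with results of these arrays known, so their values are given as a description with no test.

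Gene expression was profiled in NIH-3T3:Per2-Luc cells, an immortalized line of mouse fibroblasts that carries luciferase under the Per2 promoter as a reporter of the circadian clock. Cells were given a cOS-pulse, a critical oxidative stress of 5 mM H2O2 for 10 min, and RNA was taken 4 h, 20 h and 32 h later. The control received fresh medium with 0 mM H2O2, itself a weak resetting stimulus for the clock, and its label gives 4 h. Each of the 4 conditions has 1 one-color array and 0 replicates, and the single control serves for all 3 times, so the 3 comparisons with it share that array and time since the medium change cannot be told apart from time since the pulse at 20 h and 32 h.

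Most Zfp genes encode C2H2 zinc finger proteins, in which each finger folds around a zinc ion and reads a few bases of DNA. In mammals the largest class also carries a KRAB domain, which recruits the corepressor TRIM28 (KAP1) and the histone methyltransferase SETDB1 to silence retroelements and imprinted regions, and many of these genes lie in clusters that arose by duplication. Zfp names also belong to proteins of other function, among them ribosome assembly factors and the CCCH-type mRNA decay factors of the Zfp36 family.

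The cells are a fibroblast line, and some markers of other cell types were detected beside those of fibroblasts. All 10 fibroblast markers, including Col1a1, Vim, Fn1 and Thy1, were above background on the 4 arrays, while Epcam, Cdh1, Krt18, Tie1 and Ptprc were above background on none. 2 of 5 epithelial, 2 of 4 endothelial and 2 of 4 neuronal markers were nevertheless above background on all 4 arrays, as were the leukocyte markers Cd68, Cd3e and Itgam. In the control, the log2 signals of Itgam (4.35) and the neuronal marker Snap25 (3.92) were close to that of Col1a1 (4.26). Signals of different probes do not rank their RNA. At 4 h, 9 of the 10 fibroblast markers lay below the control (median log2 ratio -0.44), where 6078 of all 15278 genes did (median 0.17). Of the 10, Pdgfrb was at least 2-fold lower (-1.35), while Cd68 (2.08) and Krt8 (1.17) were at least 2-fold higher. Among all genes 8.29% were at least 2-fold lower and 8.04% higher. At 20 h, Col1a1 (-1.06), Col3a1 (-1.02), Thy1 (-1.39) and the neuronal marker Snap25 were at least 2-fold lower, where 1.85% of all genes were. The median of the fibroblast markers was -0.42 at 20 h, and that of all genes was 0.0047. At 32 h the median of the fibroblast markers was -0.24, and no marker above background on all arrays passed 2-fold. The part of these shifts in the Zfp results was not tested. Between 52.7% and 59.1% of 39429 probes were well above background per array, the most on the 4 h array, and no spot was saturated. All values below are log2 signals relative to the 75th percentile of their array, or differences between 2 such signals (log2 ratios), and ± gives the error that the scanner software assigns to the spots. This error covers the spot and not the spread between cultures, and its median over the members was 0.21 for each comparison.

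After 4 h, 16 Zfp genes (5.28%) exceeded the control by at least 2-fold, as did 8.04% of all detected genes, and 23 (7.59%) were at least 2-fold lower, as were 8.29% of all detected genes. Together, 12.9% of the Zfp genes passed 2-fold at this time, below the 16.3% of all genes. The middle of the distribution also lay near that of all genes: the median log2 ratio was 0.13 for the Zfp genes and 0.17 for all genes, and the quartiles were -0.31 and 0.50 against -0.33 and 0.51. At 1.5-fold, 112 Zfp genes (37.0%) passed, where 37.7% of all genes did. The share past 1.5-fold was therefore near that of all genes, and 145 of the 303 (47.9%) lay beyond 2 spot errors from the control, as did 53% of all genes.

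**Figure D1:**
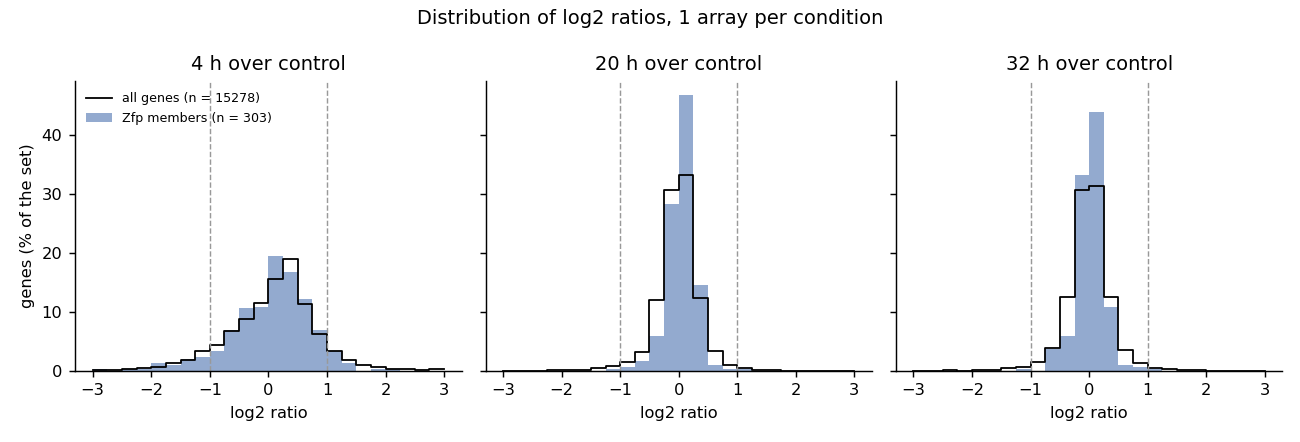
Share of genes (%) by log2 ratio over the control at 4 h, 20 h and 32 h, for the 303 Zfp genes (filled) and all 15278 detected genes (line), in bins of equal width, with values beyond -3 or 3 counted in the end bins and dashed lines at 2-fold. The 4 h distribution is wide for both sets, and at 20 h and 32 h that of the Zfp genes is narrower than that of all genes, with quartiles of -0.08 and 0.18 against -0.19 and 0.18 at 20 h.

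Among the Zfp genes with the highest ratios at 4 h, Zfp605 had log2 signals of -2.77 in the control, -0.75 at 4 h, -2.30 at 20 h and -2.35 at 32 h. Its 4 h signal stood apart from the other 3, by a log2 ratio of 2.02 ± 0.22 over the control, or 4.06-fold. Zfp142 was measured at -1.77 in the control, 0.18 at 4 h, -1.76 at 20 h and -1.59 at 32 h, a ratio of 1.95 ± 0.21 (3.85-fold), and its second probe rose by 1.16 ± 0.22. The probe of Zfp605 lies at chr5:110552839-110552898 and that of Zfp142 at chr1:74611702-74611761 on the mm9 build that the array annotation uses.

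Zfp593, whose yeast relative helps to export the large ribosomal subunit, had signals of 0.51 in the control, 1.96 at 4 h, 0.02 at 20 h and 0.06 at 32 h. Its ratio at 4 h was 1.46 ± 0.20, and a second probe that overlaps the first by all but a few bases gave 1.49 ± 0.20. Zfp330, a nucleolar protein, was at 1.83 in the control, 3.08 at 4 h, 1.57 at 20 h and 1.59 at 32 h, and its probes gave ratios of 1.25 ± 0.20 and 1.09 ± 0.20. Zfp593 and Zfp330 were highest at 4 h among the 4 arrays. Their signals at 20 h and 32 h lay below the control and differed from each other by less than the spot error. Zfp451, a SUMO ligase of nuclear bodies, was at 0.09 in the control, 1.34 at 4 h, 0.20 at 20 h and 0.10 at 32 h (ratio 1.25 ± 0.20).

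Zfp655, a KRAB protein that binds the signaling protein Vav1, had signals of 3.67 in the control, 5.08 at 4 h, 4.05 at 20 h and 4.04 at 32 h (ratio 1.41 ± 0.20). Its other probes, annotated to a different transcript, gave 1.14 ± 0.21 and 0.07 ± 0.21, so the rise was not seen by all of them. The remaining 4 of the 10 highest were Zfp775 (1.40 ± 0.28), Zfp719 (1.17 ± 0.20), Zfp7 (1.16 ± 0.21) and Zfp366 (2.15-fold), the last a corepressor of the estrogen receptor. Zfp775 and Zfp366 were dim in the control, at -4.10 and -3.90, where the lowest signal that counted as detected was -4.76. Zfp160 lay just under 2-fold before rounding and is not counted.

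The falls at 4 h were deeper than the rises at the extreme. Zfp41 had log2 signals of -1.07 in the control, -3.87 at 4 h, -0.96 at 20 h and -0.90 at 32 h. Only the 4 h array was low, and the ratio of -2.80 ± 0.25 (6.96-fold lower) was the lowest of the 303 genes. Zfp618, a partner of the methylated-DNA reader UHRF2, was at 1.22 in the control, -0.84 at 4 h, 0.82 at 20 h and 0.93 at 32 h (ratio -2.06 ± 0.20). Zfp414 fell from 1.64 to -0.20 at 4 h and measured 1.51 and 1.56 at 20 h and 32 h (ratio -1.84 ± 0.20).

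Zfp688 was read by a pair of probes that gave the same result, with ratios of -1.79 ± 0.21 and -1.76 ± 0.21, and its brighter probe was at 0.87 in the control, -0.92 at 4 h, 1.03 at 20 h and 1.08 at 32 h. Zfp90, a KRAB protein, was at 0.11 in the control, -1.47 at 4 h, 0.01 at 20 h and 0.06 at 32 h (ratio -1.58 ± 0.21). Zfp161, now named Zbtb14 and known as a repressor that binds the Myc promoter, was at 0.10 in the control, -1.45 at 4 h, 0.09 at 20 h and 0.03 at 32 h (ratio -1.55 ± 0.21). For both genes the signals at 20 h and 32 h lay within 0.10 of the control. Zfp454 (-1.88 ± 0.29), Zfp810 (-1.84 ± 0.23) and Zfp455 (-1.70 ± 0.32) completed the 10 lowest with Zfp467, whose probes disagreed and are described further on, and Zfp454 and Zfp455 were near the detection limit at 4 h, at -4.18 and -4.58 where the lowest detected signal was -4.94.

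**Figure D2:**
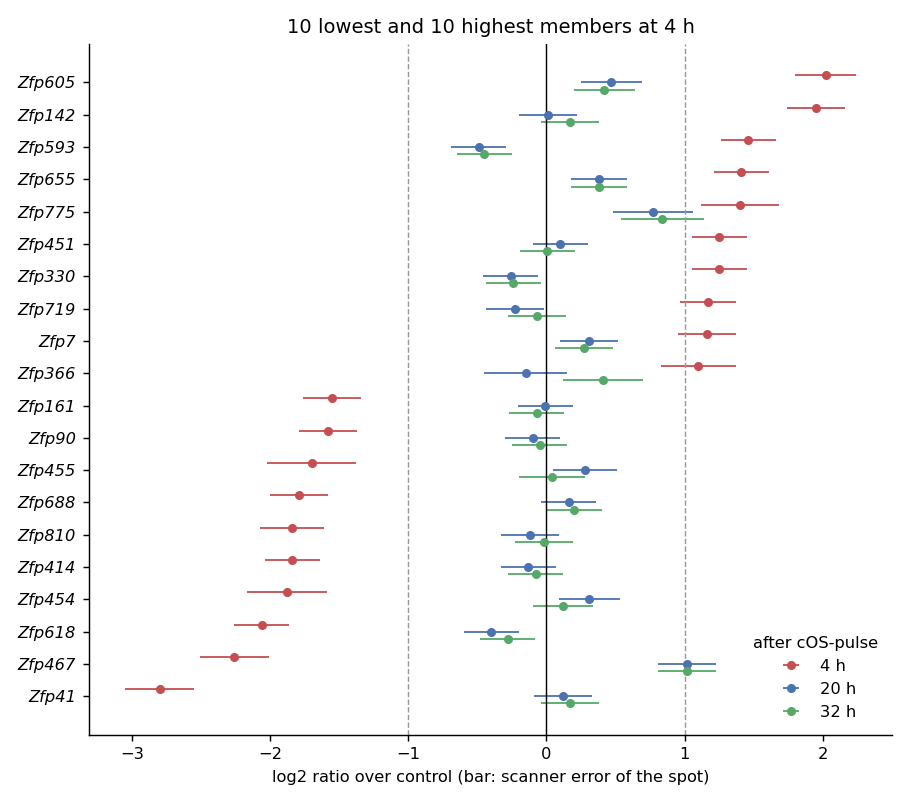
Log2 ratio over the control of the 10 lowest and 10 highest Zfp genes at 4 h (one row per gene), with points for 4 h, 20 h and 32 h after the cOS-pulse, bars for the scanner error of the spots and dashed lines at 2-fold. The 4 h points run from -2.80 for Zfp41 to 2.02 for Zfp605, and at 20 h and 32 h all 20 genes except Zfp775 and Zfp467 lie within 1.5-fold of the control.

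A gene with 1 probe rests on 1 spot per array in most cases, since 297 of the member probes were printed once and 6 were printed 10 times. Of the 20 genes with the highest or lowest ratios, 13 had 1 detected probe and 7 had more. In 6 of these 7 all probes lay on the same side of the control, and Zfp467 was the exception. Over all Zfp genes, 103 had more than 1 detected probe. In 74 of them the probes lay on the same side of the control at 4 h, in 70 they lay within 0.5 of each other, and the median range between probes was 0.30. In 29 the probes lay on opposite sides, and in 9 of these they were at least 1 apart.

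Zfp467, a zinc finger protein known for its part in the choice between osteoblast and adipocyte fate, had the most discordant probes of these 9 genes. Its brightest probe, annotated to NM_020589, was at -1.27 in the control, -3.53 at 4 h, -0.26 at 20 h and -0.25 at 32 h. This gave a ratio of -2.26 ± 0.25 at 4 h, and a second probe of the same transcript gave -0.77 ± 0.23. Both probes annotated to NM_001085417 were higher at 4 h instead, by 1.12 ± 0.28 and 0.64 ± 0.31. All 4 probes were above the control at the later times, by 0.66 to 1.02 at 20 h and 0.56 to 1.02 at 32 h.

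Zfp672 also differed by transcript, with 0.70 ± 0.20 from the probe for its coding transcript and -1.07 ± 0.21 from the probe for a non-coding one. For Zfp318 3 probes gave -1.45 to 0.22 beside the brightest at -1.15 ± 0.20. Zfp809, which silences retroviral DNA through TRIM28, gave -0.76 ± 0.22 and 0.52 ± 0.22. The widest range, 3.45, belonged to a gene whose probes moved the same way: Zfp207, a spindle assembly protein, rose by 3.87 at a dim probe annotated to a non-coding transcript (-4.27 in the control and -0.40 at 4 h), whereas its bright probe gave 0.42 ± 0.20. These probes are 1 spot each, and their place in exons or introns was not analysed here.

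**Figure D3:**
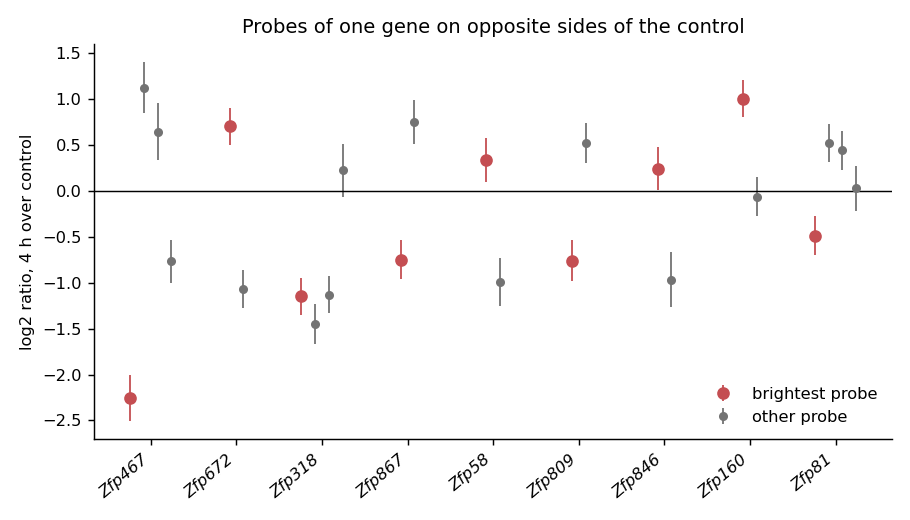
Log2 ratio at 4 h over the control for each detected probe of the 9 Zfp genes whose probes lay on opposite sides of the control and at least 1 apart, with bars for the scanner error of the spots. The large red point is the brightest probe, which gave the value of the gene; for Zfp467 it lies at -2.26 and the highest of the other probes at 1.12.

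The balance of rises and falls at 4 h depended on how the arrays were scaled. Scaled by the 75th percentile, 41.0% of the Zfp genes past 2-fold were higher than the control and 49.3% of all such genes were. Scaled by the median the counts of Zfp genes became 5 higher and 42 lower (10.6% higher), by spike-in controls 4 and 48 (7.69%), by the 75th percentile of detected probes 9 and 27 (25%), by quantiles 11 and 28 (28.2%), and without scaling 5 and 34 (12.8%). The share over all genes moved too, to 18.8%, 16.6%, 36.8%, 37.3% and 24.2%. The median of the Zfp genes turned negative with the median (-0.23), the spike-in controls (-0.27) and no scaling (-0.15), where the median of all genes was -0.19, -0.23 and -0.11. Relative to all genes the Zfp median was -0.037 in every scaling that shifts a whole array. Such a shift moves both medians alike, so this value was fixed by arithmetic. Under quantile normalization, which can change it, it was 0.059.

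All 23 genes that were at least 2-fold lower remained so in all 6 scalings, whereas 4 of the 16 that were higher did: Zfp605, Zfp142, Zfp593 and Zfp655. Among the scalings that shift a whole array, the 75th percentile gave every gene its highest ratio at 4 h, so the falls are fewest there by construction. Over all 303, 86 genes lay above the control and 119 below it in every scaling, and the side of the other 98 depended on the choice.

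**Figure D4:**
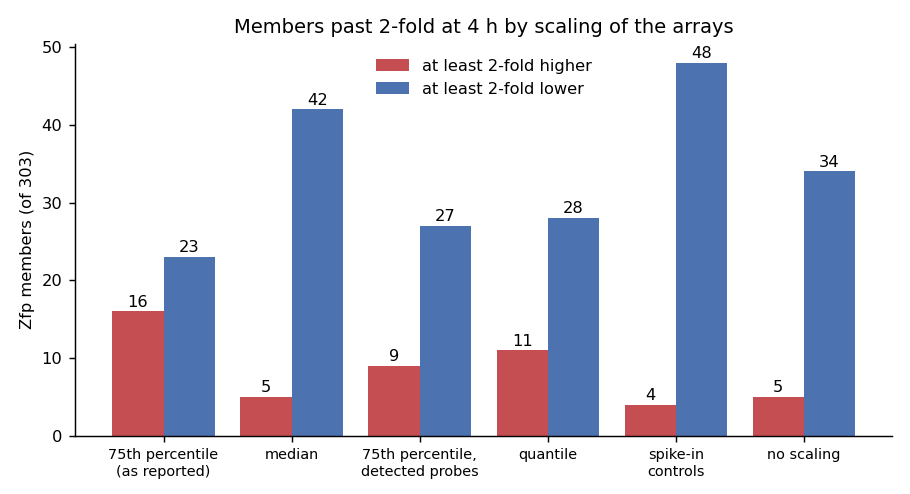
Number of the 303 Zfp genes at least 2-fold higher (red) or lower (blue) at 4 h than in the control under 6 scalings of the arrays. Lower genes outnumber higher ones in each, from 16 higher and 23 lower with the 75th percentile to 4 higher and 48 lower with the spike-in controls.

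At 20 h after the cOS-pulse 1 Zfp gene was at least 2-fold higher, where 0.687% of all genes were, and 1 was at least 2-fold lower, where 1.85% were, or 2.53% of all genes in either direction. At 32 h the counts were again 1 and 1, where 1.05% and 1.61% of all genes passed, or 2.66% in either direction. At 1.5-fold, 8 Zfp genes (2.64%) differed from the control at 20 h and 10 (3.30%) at 32 h, against 8.40% and 9.12% of all genes. The median was 0.06 at 20 h and 0.03 at 32 h, and that of all genes was 0.0047 and -0.00085. No test of these differences was possible with 1 array per condition.

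The gene that was higher at both times was Zfp467, by 1.02 ± 0.21 at each, and the gene that was lower was Zfp667. Zfp667, a KRAB protein first described in ischemic heart muscle, had signals of -3.23 in the control, -3.53 at 4 h, -4.44 at 20 h and -4.46 at 32 h, ratios of -1.21 ± 0.30 and -1.23 ± 0.35 at the late times. Its late signals were the low ones, and they lay close to the lowest detected signals of those arrays, -5.11 and -4.73. Among the other lowest genes at both times, Zfp663 was at 5.33 in the control, 5.87 at 4 h, 4.56 at 20 h and 4.66 at 32 h, so that its late ratios were -0.77 ± 0.20 and -0.66 ± 0.20. Zfp691 was at -0.82 and -0.64, Zfp961 at -0.61 and -0.70, and Zfp160 at -0.60 and -0.67 relative to the control at 20 h and 32 h. With normexp background correction neither Zfp467 nor Zfp667 passed 2-fold at these times, and averaged over its probes Zfp467 did not either. The highest genes after Zfp467 were Zfp775 at both times (0.77 ± 0.29 and 0.84 ± 0.30), Zfp40 (0.64) at 20 h and Zfp169 (0.83) at 32 h.

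The genes that had passed 2-fold at 4 h were back near the control later. Of the 16 higher genes, 15 lay within 1.5-fold of the control at 20 h and 15 at 32 h, with medians of 0.06 and 0.15. These were 93.8% of them at either time, where 87.1% and 85.6% of the 1229 genes of any name that were higher at 4 h did so. Of the 23 lower genes, 21 lay within 1.5-fold at either time, with medians of 0.04 and -0.02, or 91.3%, where 87.4% and 84.8% of all 1266 lower genes did so. None of the 39 was still past 2-fold in its first direction, and 1, Zfp467, was past it in the opposite direction at both times. Among all genes, 1.55% of the higher and 4.82% of the lower ones were still past 2-fold at 20 h, and 2.36% and 4.34% at 32 h. The control is part of both ratios of each gene, and with 1 control array its own error cannot be separated from these changes.

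Between 20 h and 32 h, times chosen in the study to catch circadian changes, no Zfp gene differed by 2-fold in either direction, where 0.151% of all genes were higher and 0.321% lower at 20 h, 0.471% together. By 1.5-fold 1 Zfp gene differed, where 2.05% of all genes did. This was Zfp169, at -3.60 in the control, -3.77 at 4 h, -3.46 at 20 h and -2.77 at 32 h, a ratio of 20 h over 32 h of -0.69 ± 0.24. Zfp366 followed at -0.56 ± 0.28, then Zfp352 (-0.36), Zfp238 (-0.31) and Zfp790 (-0.24). On the other side were Zfp317 (0.46 ± 0.22), Zfp369 (0.43 ± 0.23), Zfp113 (0.32), Zfp101 (0.30) and Zfp600 (0.26). 2 of the 303 genes (0.66%) lay beyond 2 spot errors, where 3.74% of all genes did.

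A list of 42 Zfp genes with a known role, 39 of them members, had 4 higher and 1 lower gene at 4 h, with a median of 0.22 and 61.5% of its genes above the control. Of all genes 8.04% were higher and 8.29% lower, with a median of 0.17 and 60.2% above the control. The list was written with results of these arrays known, and its median moves with the scaling as that of all Zfp genes does. The higher genes were Zfp451 and Zfp655, described above, Zfp622 and Zfp703, and of these 4 Zfp655 alone stayed past 2-fold in all 6 scalings. Zfp622, a maturation factor of the large ribosomal subunit, was at 4.71 in the control, 5.75 at 4 h, 4.73 at 20 h and 4.64 at 32 h (ratio 1.04 ± 0.20). Zfp703, a repressor linked to luminal breast cancer, was at 2.35 at 4 h, 1.32 at 20 h and 1.43 at 32 h, where the control was within 0.03 of the 20 h array (ratio 1.06 ± 0.20), while its relative Zfp503 gave -0.38 ± 0.06. Zfp622 and Zfp703 were highest on the 4 h array.

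The lower gene was Zfp521, a partner of early B-cell factors that acts in mesenchymal and blood progenitors, at -1.15 in the control, -2.44 at 4 h, -1.59 at 20 h and -1.66 at 32 h (ratio -1.29 ± 0.22). It was lowest at 4 h and still below the control later, by 0.44 and 0.51 on the log2 scale. Its paralog Zfp423, a factor of preadipocyte commitment, gave 0.64 ± 0.24 at 4 h. Zfp598, the ubiquitin ligase that marks collided ribosomes, gave 0.37 ± 0.20, and Zfp281, a factor of pluripotent cells, 0.91 ± 0.20.

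Zfp57 and Zfp445, which protect imprinted methylation, gave 0.22 ± 0.21 and 0.37 ± 0.20 at 4 h, and Zfp568, a repressor of an Igf2 transcript, gave 0.69 ± 0.21. Zfp57 was at -2.25 in the control, -2.04 at 4 h, -1.92 at 20 h and -1.72 at 32 h, with its highest ratio, 0.53, at 32 h. Zfp592 and Zfp687, which sit together in a chromatin complex, gave 0.60 ± 0.20 and 0.67 ± 0.20. Zfp143, an activator of small nuclear RNA and many housekeeping promoters, gave -0.06 ± 0.21, and Zfp217, a corepressor subunit, -0.36 ± 0.20.

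The mRNA decay factors Zfp36l1 and Zfp36l2 lay on opposite sides of the control at every time under the 75th percentile scaling, but at 4 h both lay below it with median, spike-in, quantile or no scaling. Zfp36l1 was at 4.45 in the control, 4.65 at 4 h, 4.74 at 20 h and 4.84 at 32 h, above the control on each array. Zfp36l2 was at 4.83 in the control, 4.25 at 4 h, 4.30 at 20 h and 4.20 at 32 h, below it on each, with ratios of -0.59, -0.54 and -0.63 (each ± 0.20). Neither passed 2-fold. Besides Zfp36l2, genes with a bright probe in the control, which does not rank their RNA, were Zfp628, Zfp408, Zfp658 and Zfp663, with ratios of 0.35, 0.46, 0.77 and 0.54 at 4 h (each ± 0.20).

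The machinery that KRAB zinc finger proteins recruit was counted with the same rule. Of 39 corepressor and silencing genes 38 were detected on all arrays, and at 4 h 1 was at least 2-fold higher and 2 lower (7.89% together), with a median of 0.09. Of all genes 16.3% passed 2-fold at this time, with a median of 0.17. The higher gene was Morc2a, which works with the HUSH silencing complex, with signals of 2.49 at 4 h, 1.34 at 20 h and 1.25 at 32 h and ratios over the control of 1.19 ± 0.20, 0.045 and -0.049. The lower genes both belong to the copying of DNA methylation at replication. Uhrf1 was at 1.96 in the control and 1.53 at 20 h, and its ratio over the control was -1.96 ± 0.20 at 4 h, -0.44 at 20 h and -0.76 at 32 h. Dnmt1 was at -0.80 in the control, -1.86 at 4 h, -0.94 at 20 h and -1.15 at 32 h (ratio -1.05 ± 0.21). Trim28 and Setdb1 lay within the spot error or close to it, at 0.13 ± 0.20 and -0.21 ± 0.20, while Atf7ip, the partner of SETDB1, was at 0.99 ± 0.20. None of the 38 genes passed 2-fold at 20 h or 32 h, where 2.53% and 2.66% of all genes did.

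Genes with other names for zinc-binding proteins were counted in the same way at 4 h, where 8.04% of all genes were higher and 8.29% lower with a median of 0.17. Of 30 detected Zbtb genes 4 were higher and 3 lower (23.3% together, median 0.20), of 12 Zscan or Zkscan genes none was higher and 1 lower (0.04), of 14 Zc3h genes 1 was higher and none lower (0.19), of 19 Zdhhc genes 1 was higher and 2 lower (0.15), and of 4 Zmynd genes 1 was higher and none lower (0.20).

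The Zfp genes are spread over 20 chromosomes, with 75 of the 303 probes on chromosome 7, 39 on chromosome 17 and 27 on chromosome 13. On chromosome 7, 2 genes were higher and 4 lower at 4 h with a median of 0.16, and on chromosome 13, 1 was higher and 3 lower with a median of 0.03. Chromosome 17 had 1 higher gene (Zfp871, at 1.08, named after its value was seen) and 5 lower genes, among them Zfp414 and Zfp161, and a median of -0.03, below the 0.13 of all members. Medians lay further out on some chromosomes with fewer genes, such as -0.33 on chromosome 11 (12 genes) and 0.91 on chromosome 1 (5 genes, 2 higher). Chromosome 5 had 3 higher and no lower gene among 16. These counts stand beside 8.04% higher and 8.29% lower among all genes. The probe of Zfp28 is placed on chromosome 5 by the array annotation, whereas RefSeq has the gene on chromosome 7, and that of Zfp131 is on an unplaced piece of chromosome 13.

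Of the 303 genes, 171 had another gene with a Zfp name among the 2 protein-coding genes on either side. Neighbors were counted by current name alone, so a zinc finger gene of another name did not count, and a gene without a Zfp neighbor can still lie in a cluster. Of the 171 genes 5 were higher (2.92%) and 13 lower (7.60%) at 4 h, with a median of 0.14. Of the 132 without such a neighbor 11 were higher (8.33%) and 10 lower (7.58%), with a median of 0.13. The shares of all genes were 8.04% higher and 8.29% lower, with a median of 0.17. Among the 10 genes with the highest ratios, Zfp719 and Zfp7 had a Zfp neighbor and the others had none. Of the 10 lowest, 5 (Zfp467, Zfp454, Zfp810, Zfp688 and Zfp455) had one. Neighboring Zfp genes can share near-identical sequence, so a 60-base probe may bind transcripts of a paralog, which was not tested here.

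**Figure D5:**
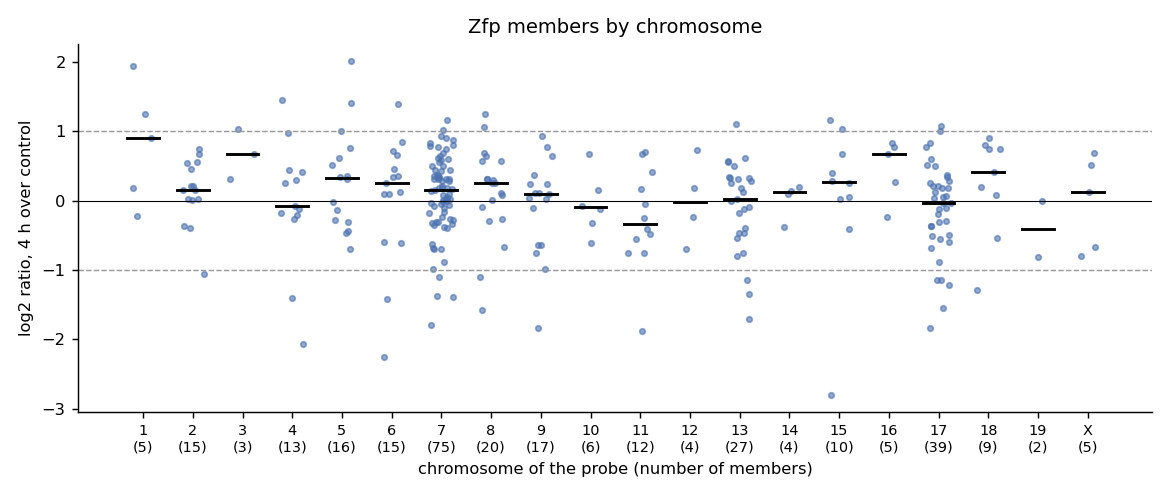
Log2 ratio at 4 h over the control of each Zfp gene (points) by the chromosome of its probe, with the number of genes in parentheses, a bar at each median and dashed lines at 2-fold. Chromosome 7 holds 75 genes with a median of 0.16, and chromosome 17 holds 39 with a median of -0.03; the gene on an unplaced piece of chromosome 13 is not drawn.

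Promoters of 253 members were given by RefSeq (GRCm38.p6), from 250 bases before to 50 after 1 start of each gene, beside those of 27025 genes in all. The Zfp promoters were richer in CpG, with a median of 14 CpG against 7 and 55% GC against 52.7%, and the TATA motif TATAAA was in 5.93% of them against 14.2% of all. The 27025 genes were not limited to detected ones, as the members were. The part of detection in these differences and in those of the motifs below was not tested. Each of 14 motifs was searched on both strands, and a match is a run of letters, not a bound site. The ETS motif CCGGAAG was in 19.0% of the Zfp promoters and 9.12% of all, and in 5 of the 12 promoters of genes higher at 4 h and 3 of the 18 of genes lower. The Zfp143 motif, ACTACA followed by any 2 letters and TCC, bound by a member of the family, was in 44 Zfp promoters (17.4%) and 2.15% of all, among them 1 of the 12 and 4 of the 18. The antioxidant response motif TGACNNNGC was in 15.4% of Zfp promoters and 12.5% of all, in 3 of the 12 and 4 of the 18. These small counts were not tested.

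The 250 bases before the start are shown for 3 genes that were higher at 4 h in every scaling and hold the ETS motif, and for 2 of the 10 lowest genes, which hold the Zfp143 motif. Each of these matches is in capitals, on the strand of the gene, so that a motif of the other strand reads from its far end.
Zfp605 (chr5:110109842-110110091, plus strand): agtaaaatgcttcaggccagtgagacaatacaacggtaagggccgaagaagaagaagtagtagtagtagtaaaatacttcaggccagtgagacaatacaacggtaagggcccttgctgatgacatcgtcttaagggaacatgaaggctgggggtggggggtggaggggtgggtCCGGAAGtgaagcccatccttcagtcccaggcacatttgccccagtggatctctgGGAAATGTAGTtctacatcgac
Zfp142 (chr1:74588029-74588278, minus strand): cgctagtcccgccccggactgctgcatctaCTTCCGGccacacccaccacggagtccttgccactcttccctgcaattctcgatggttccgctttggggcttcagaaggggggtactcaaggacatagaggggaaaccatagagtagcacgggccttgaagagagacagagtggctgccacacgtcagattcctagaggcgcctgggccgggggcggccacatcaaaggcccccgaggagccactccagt
Zfp655 (chr5:145231492-145231741, plus strand): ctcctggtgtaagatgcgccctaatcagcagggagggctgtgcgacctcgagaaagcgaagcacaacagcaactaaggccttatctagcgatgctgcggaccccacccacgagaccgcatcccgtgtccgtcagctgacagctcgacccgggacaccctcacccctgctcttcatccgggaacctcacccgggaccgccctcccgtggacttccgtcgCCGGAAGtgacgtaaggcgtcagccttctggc
Zfp454 (chr11:50887511-50887760, minus strand): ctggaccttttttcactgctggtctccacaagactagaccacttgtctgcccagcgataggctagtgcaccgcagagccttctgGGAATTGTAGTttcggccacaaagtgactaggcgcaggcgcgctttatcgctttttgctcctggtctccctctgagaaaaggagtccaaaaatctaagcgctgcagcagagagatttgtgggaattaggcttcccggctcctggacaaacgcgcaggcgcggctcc
Zfp455 (chr13:67194256-67194505, plus strand): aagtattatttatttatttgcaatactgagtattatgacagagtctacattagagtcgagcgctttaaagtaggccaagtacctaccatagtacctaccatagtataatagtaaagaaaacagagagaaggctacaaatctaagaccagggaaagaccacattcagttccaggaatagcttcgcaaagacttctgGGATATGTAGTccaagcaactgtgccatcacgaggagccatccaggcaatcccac

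Zfp605 holds both motifs, with the Zfp143 match the nearer one to the start, and Zfp142 and Zfp655 hold the ETS motif alone. In Zfp142 the ETS match lies near the far end of the stretch, and in Zfp655 close to the start. Zfp454 and Zfp455 hold the Zfp143 motif without the ETS motif. Both fell at 4 h, by 1.88 and 1.70 on the log2 scale, and lay within 0.31 of the control later, while most of the 44 members with this motif did not pass 2-fold.

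Of the 59 Zfp genes that were not members, 32 had no probe above background on any array and 27 had one on some. The dimmest members were Zfp449, Zfp334 and Zfp167, with control signals of -3.80, -4.15 and -4.14. The brightest genes left out among those detected on 3 arrays were Zfp953, Zfp324 and Zfp786, at -2.60, -3.16 and -3.72 in the control. None of these 3 was well above background at 4 h, though the Zfp953 signal there, -4.61, exceeded the lowest detected one, -4.94. For genes above background on 1 of 2 arrays the change has only a bound, taken against the lowest detected signal of the other array or the signal of the probe there, whichever was higher. At 4 h 12 such genes were higher, 3 of them at least 2-fold, and 7 were lower, 5 of them at least 2-fold. Such bounds were not counted over all genes, so these counts have no share to stand beside. Of all probes 59.1% were above background on the 4 h array and 53.4% on the control array. Zfp953 was at least 4.03-fold lower, Zfp709 at least 3.69-fold, Zfp324 at least 3.44-fold and Zfp786 at least 2.32-fold. Zfp709 and Zfp783 are named after their values were seen. Zfp783 was at -2.26 in the control and not well above background on the 3 stressed arrays. It was at least 6.41-fold lower at 4 h, 7.21-fold at 20 h and 5.55-fold at 32 h. Its signals there were -7.24, -7.39 and -6.95, near the medians of the negative control probes (-7.02, -7.21 and -6.73). All 3 bounds rest on the same control signal, so they are not separate measurements of a fall.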

How the data were processed

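The authors hybridized Cy3-labeled RNA of each condition to 1 one-color Agilent mouse array, all 4 on 1 slide, and deposited the spot intensities of Agilent Feature Extraction 10.7.3.1 (named in the submitters' processing notes), with background subtracted, annotated to mm9. A second deposited table holds these intensities on a linear scale, each array divided by its own constant (largest deviation 0.00012%), with column medians of 0.059, 0.0757, 0.0546 and 0.0587, which was used as an alternative.

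Spots without an outlier flag (all but 125 to 161 per array) were averaged per probe on the log2 scale, and each array was centered on its 75th percentile. Detection required the well-above-background flag on 50% or more of the spots of a probe. Members and gene lists were chosen with earlier results of these data known. Called means at least 2-fold, in 4 comparisons. No test was run, since there was 1 array per condition, and arrays carry no depth, so their number limits the precision. SAM, which the methods name, was not run for the same reason. Names followed the array, with 288 member accessions and all 303 symbols matched to RefSeq and 12 symbols since renamed. Genes named were the 10 highest and lowest at 4 h, the 5 highest and lowest of the other comparisons, the 5 brightest, those at the detection limit, those with a known role, those with discordant probes and the corepressors past 2-fold. Protein domains were not analysed here, and the result of 1 marker gene is not reported here. Alternatives covered 5 other scalings, normexp (offset 50, limma 3.58.1, R 4.3.3), other detection flags, probe rules and thresholds. The steps were tested on simulated data for 4 h over control with 21057 probes, where 200 of 200 probes changed 4-fold were recovered and 0 unchanged ones were called. The simulated arrays were copies of the control array with small added noise, and no dim probe was changed. This checks that the steps run as written and gives no error rate for the real arrays. Python 3.11.15, numpy 2.4.6, pandas 2.3.3 and matplotlib 3.10.9 were used.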

Additional observations from a re-analysis of the deposited data

Results flagged for a closer look

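The ratio of Zfp467 had opposite signs at the early and the late times, -2.26 at 4 h and 1.02 at both 20 h and 32 h, by its brightest probe. The difference was not tested, since there was 1 array per condition. Of its other probes 1 was also lower at 4 h (-0.77) and 2 were higher (1.12 and 0.64), so the opposite signs hold for the probes of NM_020589.

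5 Zfp genes outside the members that were not well above background in the control had a bound of at least 2-fold higher later. The share of all genes with such a bound was not counted. At 4 h Zfp819 was at least 6.33-fold higher, Zfp811 at least 4.21-fold and Zfp389 at least 2.05-fold. At 32 h Zfp874a was at least 2.33-fold higher and Zfp112 at least 2.25-fold.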

How the results depend on the processing

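No paired analysis was possible because each condition had 1 array, and no replicate could be left out. Counts are given as genes higher, then lower. At 1.5-fold they were 63 and 49 at 4 h, 3 and 5 at 20 h, 3 and 7 at 32 h, and 1 gene was lower at 20 h than at 32 h. At 3-fold they were 2 and 8 at 4 h and 0 and 0 at both 20 h and 32 h. At 4 h, scaling by the median gave 5 and 42 with a median ratio of -0.23, spike-in controls 4 and 48 with -0.27, and the 75th percentile of detected probes 9 higher. Without scaling 5 were higher at 4 h (median -0.15), 2 higher and 0 lower at 20 h (median 0.40) and 3 higher at 32 h. Normexp gave 10 and 14 at 4 h and 0 and 0 at 20 h and at 32 h. With the flag for positive and significant signals 2 were higher at 20 h and 2 at 32 h. Without a detection filter there were 2 and 6 at 20 h, 5 and 6 at 32 h, and 3 lower at 20 h than at 32 h. The mean over the probes of a gene left 0 higher at 20 h and 0 at 32 h. Counting every probe gave 27 higher at 4 h, 2 lower at 20 h, 4 and 3 at 32 h, and 2 lower at 20 h than at 32 h. The cause of these shifts was not tested beyond the settings themselves. The other 126 of 172 values stayed within the spot error or 1.5 times the count. Without scaling 74 of the 101 named ratios moved by the spot error or more, with the spike-in controls 71 and with the median 70. Over all alternatives 284 values of named ratios moved so and 926 did not. Of 29 named ratios past 2-fold none changed sign under any alternative run. Part of this was fixed in advance. The deposited table differs by a constant per array, which the scaling removes. Scalings that shift a whole array moved the ratios by less than 2-fold, so they could not turn the sign of a ratio past 2-fold. Genes near the background have the least certain ratios, with spot errors up to 0.39 at 4 h against 0.20 for bright ones.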
